A study of Rattus norvegicus with 12 samples.

Results

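The ubiquitin system genes described here come from the list of spermatogenic cell markers that accompanies the study. Their rat symbols begin with Ube, Ubq, Usp, Rnf, Klhl or Trim. They were taken by symbol alone, and no measured value entered the rule, but earlier results of these data were known. They number 17 of the 578 markers in that list, of which 15 are described. The list assigns 12 of the 15 to spermatids and 3 (Ube2t, Rnf7 and Rnf166) to spermatocytes, and no spermatogonial (SPG) marker met the rule. The study built the list from published single-cell data through homologous genes, and stated that public single-cell data of rat testis were lacking. The stage labels thus rest on homology and were not measured in these rats. The study asked how stress of different duration affects the transcripts of spermatogenic cells at each stage. RNA was sequenced from 12 whole testis samples of male Sprague Dawley (SD) rats, labelled as 8 weeks old, with 3 libraries in each of 4 groups. Rats of the 3-day, 14-day and 21-day stress groups underwent restraint stress plus ice-water swimming (RS+IS) daily for 3, 14 or 21 days. All 12 samples carry the same age label. If the rats began at the same age, those stressed for longer were older at sampling, and an effect of age was not tested. Rats of the control group moved freely in their cages but went without food and water during the same hours, so fasting was shared by all groups, and the labels do not say at which time point the 3 control samples were taken. The 14-day and 21-day groups were also pooled as a chronic stress group of 6 libraries.

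Ubiquitin is a small protein that is attached to other proteins by a relay of an activating enzyme (E1), a conjugating enzyme (E2) and a ligase (E3), and that is removed again by deubiquitinases. Chains of ubiquitin can send a protein to the proteasome, while other ubiquitin marks alter its location or its partners. In the testis the system takes part in meiotic DNA repair and chromatin remodelling, and in spermatids it accompanies the replacement of histones and the removal of cytoplasm and organelles as the cell elongates.

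The members cover most steps of this relay. Ube2g2, Ube2n and Ube2t are conjugating enzymes, acting respectively in the degradation of proteins from the endoplasmic reticulum, in the building of signalling chains, and in the Fanconi anaemia pathway of DNA repair. Rnf4 is a ligase that recognises SUMO-modified proteins, Rnf7 is the RING subunit of cullin ligases, and Rnf151 and Rnf166 are RING-type proteins, of which Rnf151 is known from the testis. Klhl10 is the adaptor that brings substrates to a cullin ligase in spermatids and is needed for male fertility in mice. Trim17, Trim36 and Triml1 belong to the TRIM family of ligases, and Trim36 is known from the acrosome. Ubqlnl belongs to the ubiquilins, a family that shuttles ubiquitinated proteins. Usp7, Usp15 and Usp50 belong to the ubiquitin-specific protease family of deubiquitinases. RNA came from whole testis, so the level of any member need not be that of germ cells alone. Usp7, Usp15, Ube2n and Rnf4, among others, are active in many cell types.

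The cAMP response element (TGACGTCA), which is bound by the spermatid activator CREM, was searched for in the 250 bases before the start site of each member, together with its half-site TGACG on either strand. Every complete element holds the half-site on both strands. RefSeq promoters of the GRCr8 assembly were at hand for 14 members, in 19 windows. The complete element was present in 2 of them, Rnf7 and Rnf166, and in 1.59% of all 33469 promoter windows of that length. The half-site was present in 6 members (Rnf166, Rnf7, Trim17, Ube2g2, Ube2n and Ube2t), in 6 of the 19 windows and in 18.2% of all windows. Both members with the complete element are spermatocyte markers. The promoters of the 3 conjugating enzymes, whose values differed between groups at an unadjusted p under 0.05 as given below, and of the pair with the complete element are printed 5′ to 3′ in the direction of the gene, with the half-sites in capitals. The windows are chr20:11005061-11005310 on the minus strand for Ube2g2, chr7:32040959-32041208 on the plus strand for Ube2n, chr13:48954916-48955165 on the plus strand for Ube2t, chr8:105927406-105927655 on the minus strand for Rnf7 and chr19:67447815-67448064 on the minus strand for Rnf166.
Ube2g2: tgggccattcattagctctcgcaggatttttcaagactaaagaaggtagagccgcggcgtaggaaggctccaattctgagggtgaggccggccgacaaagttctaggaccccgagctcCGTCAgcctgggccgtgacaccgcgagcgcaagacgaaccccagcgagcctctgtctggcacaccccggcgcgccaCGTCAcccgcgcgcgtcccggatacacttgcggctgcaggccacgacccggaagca
Ube2n: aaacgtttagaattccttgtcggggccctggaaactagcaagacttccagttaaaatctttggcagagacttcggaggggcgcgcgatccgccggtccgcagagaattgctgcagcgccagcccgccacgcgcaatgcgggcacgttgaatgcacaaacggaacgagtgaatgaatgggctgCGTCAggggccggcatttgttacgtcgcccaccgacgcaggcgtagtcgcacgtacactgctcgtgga
Ube2t: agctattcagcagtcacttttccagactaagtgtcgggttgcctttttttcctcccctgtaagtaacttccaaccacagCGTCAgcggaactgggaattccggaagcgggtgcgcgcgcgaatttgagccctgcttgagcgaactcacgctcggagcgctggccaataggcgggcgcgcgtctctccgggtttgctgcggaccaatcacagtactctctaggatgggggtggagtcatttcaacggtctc
Rnf7: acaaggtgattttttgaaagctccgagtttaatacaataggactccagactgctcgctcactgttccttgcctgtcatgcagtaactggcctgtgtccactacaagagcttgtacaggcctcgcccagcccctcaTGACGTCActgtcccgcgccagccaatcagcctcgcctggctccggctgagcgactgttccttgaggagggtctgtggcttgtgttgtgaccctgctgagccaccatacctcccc
Rnf166: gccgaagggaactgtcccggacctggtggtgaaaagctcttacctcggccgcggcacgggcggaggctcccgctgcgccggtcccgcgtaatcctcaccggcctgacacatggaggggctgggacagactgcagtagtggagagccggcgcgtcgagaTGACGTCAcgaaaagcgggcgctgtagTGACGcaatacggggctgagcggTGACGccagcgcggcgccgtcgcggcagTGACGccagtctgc
In Rnf7 the complete element began 115 bases before the start site, and in Rnf166 it began 92 bases before it and was followed by 3 further half-sites. A match of letters is a description of these windows and not evidence of binding.

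The 12 libraries held between 23908048 and 29404590 estimated counts. Libraries of the same group differed by more than counting noise, as shown by chi-square values of 10.6 to 29.5 per degree of freedom, and the samples of a group are described as biological replicates, so p-values measure the spread between those samples. One control and one 21-day library stood apart for the members. Control 1 was the lowest control in 14 of the 15 members and the lowest of all 12 libraries in 6, while 21-day 2 was the highest of all 12 libraries in 10. The other 371 spermatid markers, summed, took 8.66% of the counts in control 1 against 9.84% and 9.56% in controls 2 and 3, and 10.99% in 21-day 2 against 10.02% and 10.4% in the other 21-day libraries. The defining genes of the 3 cell stages were present in all groups. In the 21-day group, Tnp1, a spermatid nuclear protein, was 0.45 higher than in the control group on the log2 scale, and Sycp3, a protein of the meiotic chromosome axis, was 0.23 lower (edgeR adjusted p = 0.211 and 0.269). Both changes were larger than the medians of their stages in that comparison. These were 0.145 in the other 371 spermatid markers and −0.063 in the other 178 spermatocyte markers. Stra8, which marks entry into meiosis, was 0.63 lower (edgeR adjusted p = 0.154), and in the 14-day and 21-day libraries its deposited TPM was 0.888 to 1.04 times what its count implies, whereas this ratio was 0.999998 to 1.000004 in the other libraries. In RNA of whole tissue, fewer cells of a type and less RNA per cell cannot be told apart. The study itself reported significantly lower Stra8, Sycp3 and Piwil1 RNA in its chronic stress groups, measured by sequencing and by RT-qPCR. Its statements on Tnp1 RNA differ. The abstract lists Tnp1 among the significantly decreased genes, while the discussion gives no significant difference after chronic stress. By staining of sections it reported fewer cells positive for Stra8, Sycp3, Piwil1 and Tnp1 in the 14-day and 21-day groups. It reported a lower share of positive cells for Sycp3 and Piwil1.

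Levels per transcript length (TPM) placed Rnf4 first among the members and Triml1 last. In the control group Rnf4 reached 371 ± 8.88 TPM (mean ± SD, n = 3), above every other member in every control library. It was followed by a close set of the ubiquilin Ubqlnl (241 ± 23.5 TPM), Klhl10 (236 ± 14.9 TPM) and Ube2n (233 ± 16.7 TPM). Neighbours from Ubqlnl down to Usp7 (194 ± 6.92 TPM) overlapped over their 3 control libraries, so their order is not resolved. Usp15 (177 ± 9.87 TPM) was separated from its neighbours, and Ube2t (140 ± 8.97 TPM) and Usp50 (129 ± 10.9 TPM) overlapped. Rnf7 (113.5 ± 2.56 TPM) and Trim17 (90.7 ± 9.90 TPM) were each separated from the members above and below. Ube2g2 (40.7 ± 1.63 TPM) and Rnf166 (39.6 ± 3.13 TPM) overlapped, and Triml1 (26.8 ± 2.98 TPM) lay below both. Together the 15 members took 0.322% to 0.379% of the counts of a library.

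**Figure D1:**
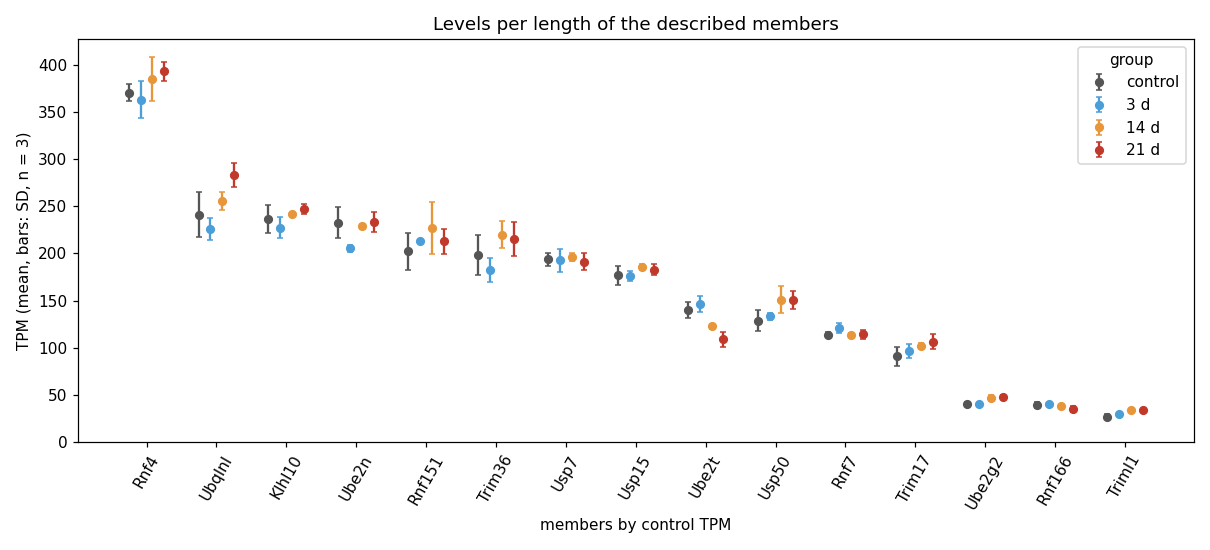
TPM of the 15 members (y axis, level per transcript length) in the control, 3-day, 14-day and 21-day groups, ordered by their control level. Points are means and bars the SD of 3 libraries. Rnf4 stands above the others at 371 TPM in controls and Triml1 below them at 26.8 TPM, and the groups of a member mostly lie close to each other compared with the distance from the highest member to the lowest.

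Of the 15 members, 11 were represented by 1 transcript and 4 by several, 19 transcripts in all, and the same transcript led in every library for each of those 4. For Trim36 the transcript ENSRNOT00000080812.1 carried 97.0% to 98.6% of the gene's TPM, and for Usp15 ENSRNOT00000031191.6 carried 87.1% to 88.7%. The leading shares were lower in Trim17 (ENSRNOT00000003885.5, 60.3% to 72.0%) and Rnf4 (ENSRNOT00000019555.6, 62.1% to 66.3%). No leading transcript changed place with another between groups. Estimated counts divide reads that transcripts share, so these shares carry the error of that division. Values below are summed over the transcripts of a gene, as CPM (counts relative to library size, scaled with TMM factors), and libraries are given in the order 1, 2 and 3.

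Among the conjugating enzymes, Ube2g2 was higher and Ube2t lower after chronic stress, and Ube2n was lower after 3 days. Ube2g2 had 59.7, 68.2 and 67.0 CPM in the control group, 61.7, 61.3 and 63.6 CPM in the 3-day group, 72.8, 69.8 and 81.2 CPM in the 14-day group and 71.5, 87.6 and 75.9 CPM in the 21-day group. All 6 chronic stress libraries lay above all 6 control and 3-day libraries. Ube2t had 37.0, 43.3 and 38.0 CPM in the control group, 39.0, 39.4 and 42.8 CPM in the 3-day group, 36.3, 35.2 and 35.4 CPM in the 14-day group and 28.7, 36.3 and 32.4 CPM in the 21-day group. Here the 6 chronic stress libraries lay below the 6 others. Ube2n had 255, 292 and 309.7 CPM in the control group, 246, 243 and 250.5 CPM in the 3-day group, 281, 274 and 282 CPM in the 14-day group and 269, 329 and 284 CPM in the 21-day group. Its 3-day libraries were close together and below every library of the other groups. Chronic stress against control left 11.4% of all features without overlap, and chronic stress against the 3-day group 11.1%. Shares over all features were not computed for splits across more groups.

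Within the TRIM family, Triml1 was higher in both chronic stress groups than in the control group. Triml1 had 37.8, 44.96 and 35.3 CPM in the control group, 41.5, 42.8 and 42.8 CPM in the 3-day group, 51.1, 46.7 and 48.3 CPM in the 14-day group and 48.1, 53.9 and 50.2 CPM in the 21-day group. The chronic stress libraries were all above the control and 3-day libraries. Of all features, 11.4% did not overlap in chronic stress against control and 11.1% against the 3-day group. Trim36 had 336, 426 and 430.4 CPM in the control group, 327, 375 and 369 CPM in the 3-day group, 455, 402 and 453 CPM in the 14-day group and 398, 458 and 468 CPM in the 21-day group. It was lowest in the 3-day group, but control 1 was within the range of that group. Trim17 ran from 98.2 CPM in control 1 to 146 CPM in 21-day 2, with overlapping groups.

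The ubiquilin Ubqlnl and the adaptor Klhl10 were among the most abundant members by count. Ubqlnl had 386, 470.5 and 487 CPM in the control group, 384, 429.7 and 411 CPM in the 3-day group, 477, 447 and 484 CPM in the 14-day group and 491, 587 and 523 CPM in the 21-day group. Its 21-day libraries were above all others, and its 3-day libraries below all chronic stress libraries. Klhl10 had 334, 401 and 364 CPM in the control group, 322, 357 and 353 CPM in the 3-day group, 375, 373 and 377 CPM in the 14-day group and 371, 423 and 383 CPM in the 21-day group. Its 14-day libraries lay inside the control range, and its 3-day libraries lay below all chronic stress libraries. Groups did not overlap for 11.1% of all features in chronic stress against the 3-day group, and for 22.4% in 21-day stress against control.

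In the ubiquitin-specific protease family, Usp50 was somewhat higher after chronic stress, and the chronic stress libraries of Usp7 stayed within the range of the controls. Usp50 had 131, 166 and 149 CPM in the control group, 144, 151 and 154 CPM in the 3-day group, 184, 153 and 184 CPM in the 14-day group and 159, 199 and 176 CPM in the 21-day group. One 14-day library (14-day 2) and 21-day 1 lay inside the control range. Usp7 had 555, 623 and 574 CPM in the control group, 523, 592 and 587 CPM in the 3-day group, 591, 593 and 577 CPM in the 14-day group and 585, 593 and 585 CPM in the 21-day group. Its 14-day and 21-day libraries were all inside the control range, and Usp15 stayed between 444 and 536 CPM in all 12 libraries.

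The RING-type members overlapped between control and each stress group. Rnf4 ran from 126 to 165 CPM, Rnf151 from 150.1 to 216 CPM and the spermatocyte markers Rnf7 and Rnf166 from 104 to 126 CPM and from 45.6 to 60.5 CPM.

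**Figure D2:**
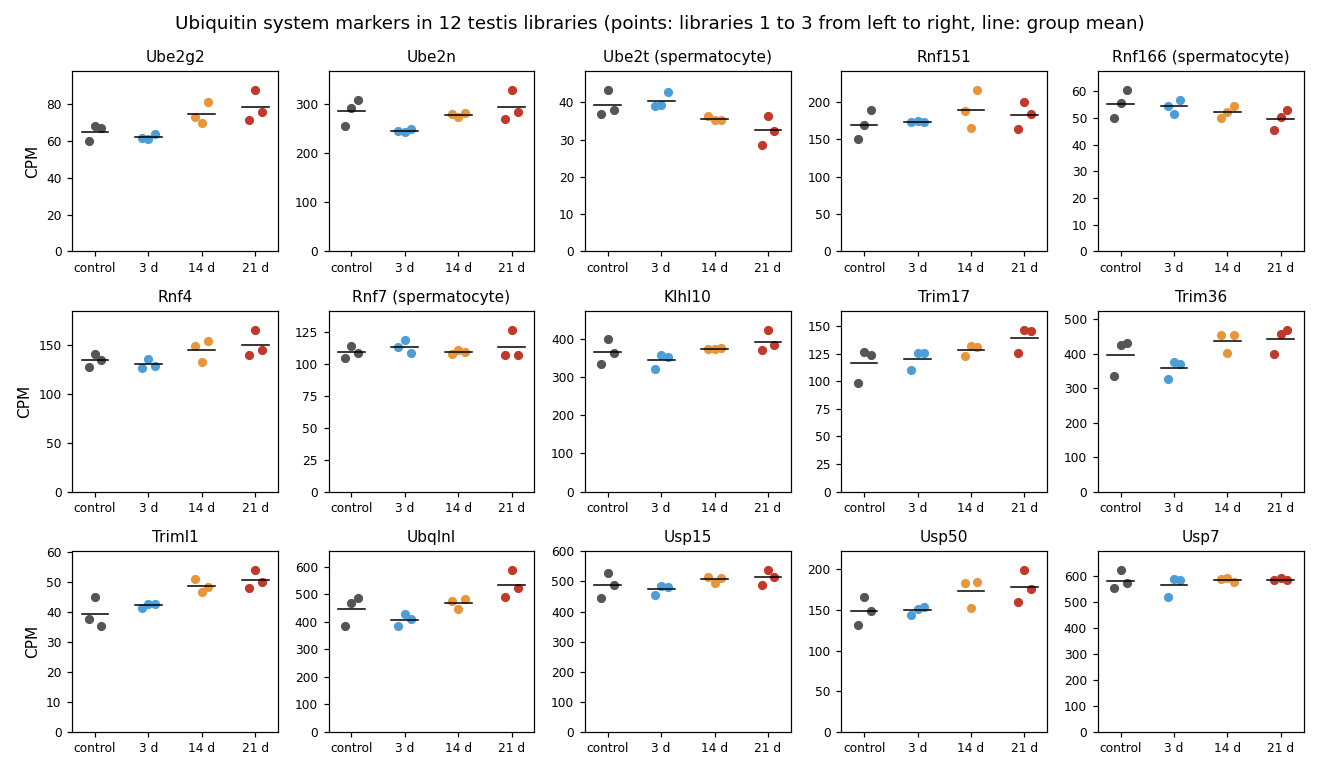
CPM of each of the 15 members (y axis, TMM-scaled counts relative to library size, starting at 0) in the 12 libraries by group, with a line at each group mean. Triml1 and Ube2g2 have all 6 chronic stress libraries above the 6 others, and Ube2t has them below. Of all features, 11.4% did not overlap in chronic stress against control and 11.1% against the 3-day group. The share for both at once was not computed. The 3 libraries of Ube2n after 3 days lie together at 243 to 250.5 CPM.

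After 3 days of stress, Ube2n was the single member that differed from the control group beyond the spread between libraries at an unadjusted p under 0.05. It was 0.21 ± 0.08 (SE) lower on the log2 scale, 0.862 times the control level (edgeR unadjusted p = 0.026, adjusted p = 0.985). This is 1 of 15 members, against 4.04% of the 21076 features tested. Its groups also did not overlap, which held for 9.8% of all features. At an adjusted p under 0.05, edgeR called 0 members and 0 features (0.0%), and DESeq2 called 0 members and 0.142% of all features, with 1 member (Ube2n) and 3.13% of all features at an unadjusted p under 0.05. The call for Ube2n was lost without any one of controls 2 and 3 or of the 3 stress libraries, with log2 fold changes from −0.15 to −0.22. Without control 1 it was −0.29, and 3 members passed, all lower after 3 days (Trim36, Ube2n and Ubqlnl), with 6.87% of all features. Of the 12 spermatid members 8 had a negative log2 fold change, with a median of −0.05 against −0.04 in the other spermatid markers and −0.0086 over all features.

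After 14 days of stress, Triml1 was higher than in the control group and no other member passed an unadjusted p under 0.05. It was 0.30 ± 0.10 (SE) higher on the log2 scale, 1.23 times the control level (edgeR unadjusted p = 0.018, adjusted p = 0.342). The share called over all 21058 features was 12.1%. Groups did not overlap for 3 members (Triml1 and Ube2g2 higher, Ube2t lower) and for 19.9% of all features. By adjusted p, edgeR and DESeq2 each called 0 members, and 0.0% of all features passed in edgeR and 1.25% in DESeq2. Triml1 no longer passed without control 3 (0.23), without 14-day 1 (0.26) or with libraries scaled on the other spermatid markers (0.20). On that scale Ube2n passed as lower, at −0.14 (edgeR unadjusted p = 0.045), with 12.5% of all features. Spermatid members had a positive log2 fold change in 11 of 12 cases and a median of 0.12, and the other spermatid markers a median of 0.098.

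After 21 days of stress, Triml1 and Ube2g2 were higher and Ube2t was lower than in the control group at an unadjusted p under 0.05, which is 3 of 15 members against 14.2% of the 21106 features tested. Triml1 differed by 0.36 ± 0.10 (SE) on the log2 scale, 1.28 times the control level (edgeR unadjusted p = 0.011, adjusted p = 0.220). Ube2g2 differed by 0.26 ± 0.10 (SE), 1.20 times the control level (edgeR unadjusted p = 0.032, adjusted p = 0.308). Ube2t, the spermatocyte marker among the 3, differed by −0.29 ± 0.11 (SE), 0.820 times the control level (edgeR unadjusted p = 0.038, adjusted p = 0.326). Groups did not overlap for these 3 and for Ubqlnl, which was 0.25 ± 0.11 (SE) higher (edgeR unadjusted p = 0.066, adjusted p = 0.375), and for 22.4% of all features. By adjusted p, edgeR and DESeq2 each called 0 members, and 0.019% of all features passed in edgeR and 2.66% in DESeq2. With DESeq2, 5 members passed at an unadjusted p under 0.05, the 3 above with Ubqlnl and Usp50, and 11.3% of all features. With libraries scaled on the other spermatid markers, Triml1 (0.21) and Ube2g2 (0.11) no longer passed. Usp7 passed as lower on that scale, at −0.15 (edgeR unadjusted p = 0.034), with 21.2% of all features. Ube2g2 lost its call without any one of the 3 controls, 21-day 2 or 21-day 3 (0.18 to 0.28), and Ube2t without control 2, 21-day 1 or 21-day 3 (−0.20 to −0.29). Without control 1 and 21-day 2 together, a setting chosen after seeing the data, Ube2t was the sole member to pass, with 15.1% of all features and a log2 fold change of −0.42, and Triml1 and Ube2g2 stood at 0.29 and 0.12.

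Over both chronic durations, 4 members passed at an unadjusted p under 0.05 against the control group, with 20.4% of the 21663 features tested. Triml1 was 0.33 ± 0.08 (SE) higher on the log2 scale (edgeR unadjusted p = 0.0019, adjusted p = 0.064), and it was higher in each of the 6 stress libraries than in any control. Ube2g2 was 0.23 ± 0.08 (SE) higher (edgeR adjusted p = 0.156) and Usp50 0.24 ± 0.09 (SE) higher (edgeR adjusted p = 0.200). Ube2t differed in the other direction, by −0.22 ± 0.09 (SE) (edgeR adjusted p = 0.195). Groups did not overlap for 3 of them (Triml1, Ube2g2 and Ube2t) and for 11.4% of all features. At an adjusted p under 0.05, edgeR called 0 members and 1.73% of all features, while DESeq2 called 1 member, Triml1, and 5.92% of all features, and at an unadjusted p under 0.05 it called 5 members and 16.5% of all features. Triml1 kept its unadjusted call without each library in turn (0.25 to 0.44) and passed the adjusted threshold without control 2. Ube2g2 lost its call without control 1 (0.18), Ube2t without control 2 (−0.14) or 21-day 3 (−0.21), and Usp50 without control 1 (0.16), control 3, 14-day 1, 14-day 3 or 21-day 3 (0.22 to 0.23). For Usp7, whose chronic stress libraries lay inside the control range, the log2 fold change had an approximate 95% interval from −0.08 to 0.08.

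Against the 3-day group, chronic stress gave the most calls: 8 members were higher and 1 was lower at an unadjusted p under 0.05, where 9.44% of the 21657 features tested were higher and 19.4% passed in either direction. The largest log2 fold changes were those of Trim36 (0.27 ± 0.07 SE, edgeR adjusted p = 0.092), Ubqlnl (0.27 ± 0.08 SE, edgeR adjusted p = 0.107) and Ube2g2 (0.27 ± 0.07 SE, edgeR adjusted p = 0.101). Usp50 and Triml1 were each 0.21 higher, Ube2n 0.19, Rnf4 0.16 and Klhl10 0.13. Ube2t was the member that was lower, at −0.27 ± 0.08 (SE) (edgeR adjusted p = 0.115). Groups did not overlap for 8 members (Klhl10, Trim36, Triml1, Ube2g2, Ube2n, Ubqlnl and Usp15 higher, Ube2t lower) and for 11.1% of all features. At an adjusted p under 0.05, edgeR called 0 members and 0.0139% of all features, whereas DESeq2 called 5 members, all higher (Trim36, Triml1, Ube2g2, Ube2n and Ubqlnl), and 4.84% of all features. Single calls were lost without 3-day 1 (Klhl10, at 0.11, Rnf4, at 0.16, and Usp50, at 0.20) and without 3-day 3 (Ube2t, at −0.20, and Rnf4, at 0.17), and Rnf4 also without 14-day 1 (0.15) or 14-day 3 (0.14). This comparison shares its chronic stress libraries with the one against control, so the calls of one are not independent of the other. Rats of the chronic stress groups may also have been older at sampling than rats of the 3-day group, and an effect of age was not tested.

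**Figure D3:**
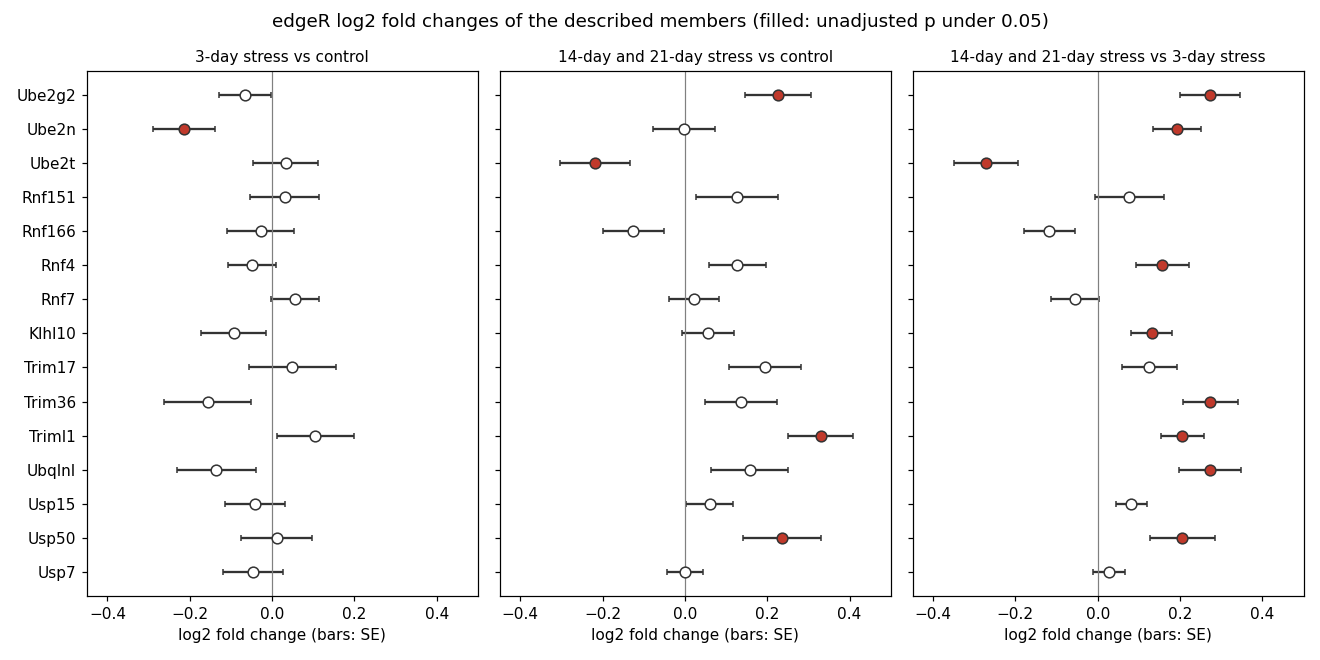
Log2 fold changes of the 15 members (x axis, edgeR, bars: SE), ordered by role, for the 3-day group against control, chronic stress against control and chronic stress against the 3-day group. Filled points have an unadjusted p under 0.05, which are 1, 4 and 9 members. Ube2t lies to the left of 0 in both chronic comparisons, at −0.22 and −0.27.

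The spermatid members were next set beside the other markers of their own stage, since 79 of those 371 were also higher than in the control group after chronic stress at an unadjusted p under 0.05, and 3 were lower. In chronic stress against control, the median log2 fold change was 0.13 in the 12 spermatid members and 0.13 in the 371 other spermatid markers, while that over all features was −0.0056. Against the 3-day group the medians were 0.17 and 0.14, with 66.7% of the spermatid members and 48.8% of the other spermatid markers higher at an unadjusted p under 0.05. The 3 spermatocyte members had medians of −0.13 and −0.12 in these comparisons, and the 178 other spermatocyte markers −0.05 and −0.07. The medians of the members had the sign of their stage, and a few members lay near the edges of it. Triml1 stood at percentile 96.8 of the other spermatid markers in chronic stress against control, Usp7 at 9.97 and Ube2n at 9.70, and Ube2t stood at percentile 1.69 of the other spermatocyte markers. The summed level of the other spermatid markers was 8.66% to 9.84% of counts in control, 8.76% to 9.30% after 3 days, 9.55% to 10.3% after 14 days and 10.02% to 10.99% after 21 days. Its part in the differences of the members is addressed in part by scaling each library on markers of the same stage.

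Under that scaling the median of all features moved to −0.13 for chronic stress against control and to −0.16 against the 3-day group. Every feature other than the spermatocyte markers was scaled on spermatid markers here, whatever its own cell type. The shares of all features on this scale are therefore not a like background for the members. Against control, 4 members and 25.8% of all features passed an unadjusted p under 0.05. They were Triml1 higher by 0.21, and Ube2n (−0.12), Usp7 (−0.12) and Ube2t (−0.17) lower, relative to their stage, while Ube2g2 (0.10) and Usp50 (0.12) no longer passed. Against the 3-day group, 5 members and 31.1% of all features passed, of which Trim36 (0.13), Ubqlnl (0.13) and Ube2g2 (0.12) were higher and Usp7 (−0.12) and Ube2t (−0.20) lower relative to their stage. In that comparison 8 of 15 members were positive and 6 had changed sign, among them Klhl10 and Usp15, which turned from positive to −0.014 and −0.063. Ube2t was lower and Ubqlnl, Trim36 and Ube2g2 higher than the 3-day group on both scales, and at an adjusted p under 0.05 edgeR called 0 members on the stage scale in both comparisons, with 0.0% of all features against control and 12.3% against the 3-day group, and DESeq2 was not run there. The median of the spermatid members against the 3-day group was 0.026 on that scale.

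**Figure D4:**
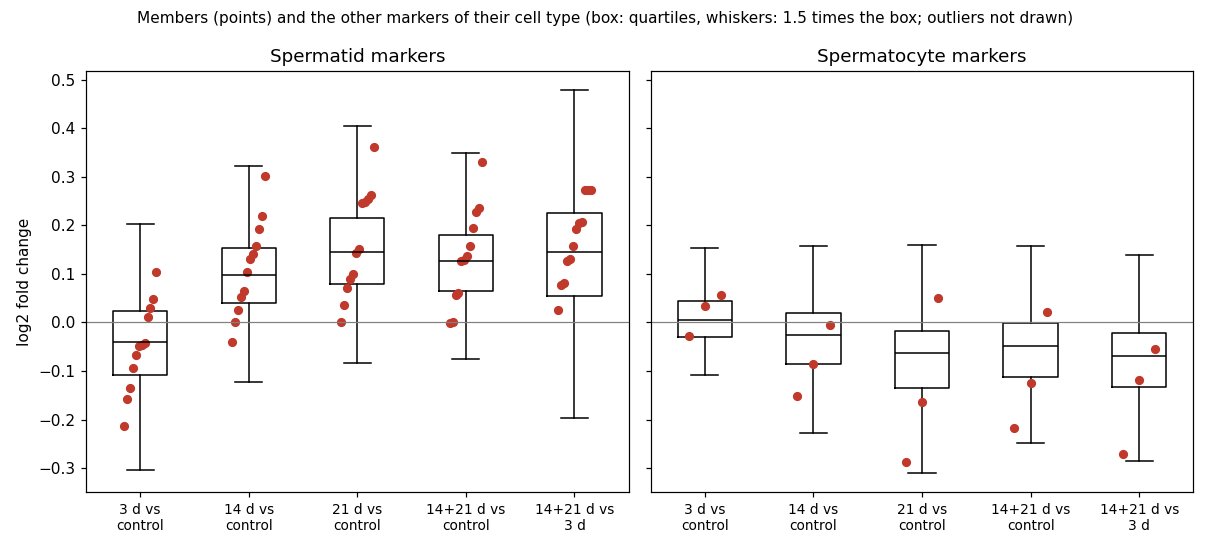
Log2 fold changes (y axis) of the spermatid members (left) and the spermatocyte members (right), as points, beside box plots of the other markers of the same stage, for 5 comparisons. Boxes give the quartiles and whiskers reach to 1.5 times the box. The points of the spermatid members lie around a box whose median is 0.13 in chronic stress against control, and the lowest spermatocyte point in the chronic comparisons is Ube2t.

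Other genes of the ubiquitin system in the marker list, 28 in number, were chosen by known function. They comprise ligases and their subunits or receptors, deubiquitinases, proteasome and shuttle proteins, and ubiquitin-like or SUMO genes. After 3 days 2 of 28 were lower at an unadjusted p under 0.05 and none higher (Herpud1 and Ubl3, named after their values were seen), and after 14 days 1 was lower. In these comparisons 4.04% and 12.1% of all features passed in either direction. After 21 days 2 were lower and none higher, and over both chronic durations 1 was higher and 2 were lower. Here 14.2% and 20.4% of all features passed in either direction, so the 28 were not called more often than all features. Psma8, the proteasome subunit of meiotic germ cells, had 110.3, 118 and 112 CPM in the control group, 103, 102 and 103 CPM in the 14-day group and 84.6, 99.6 and 91.6 CPM in the 21-day group. Each chronic stress library was below each control, and 11.4% of all features did not overlap in that comparison. The log2 fold change of Psma8 over both durations was −0.23 ± 0.07 (SE) (edgeR adjusted p = 0.112). Cdc20, an activator of the anaphase-promoting complex, had a log2 fold change of −0.21 ± 0.09 (SE) (edgeR adjusted p = 0.213), and Zfp451, a SUMO ligase, one of 0.20 ± 0.09 (SE) (edgeR adjusted p = 0.240). Against the 3-day group 11 of the 28 (39.3%) were higher and 1, Psma8, was lower. In that comparison 9.44% of all features and 48.8% of the 371 spermatid markers outside the members were higher. By adjusted p, edgeR called 0 of the 28 in each of the 5 comparisons.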

How the data were processed

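RNA sequencing of 12 rat testis samples was analysed, 3 in each of 4 groups taken from the sample labels. The authors deposited, per library, estimated counts, lengths and TPM of 31715 Ensembl transcripts. Their methods name Trimmomatic, HISAT2, Rnor_6.0 and HTSeq, with no versions, whereas the deposited layout of estimated counts and effective lengths is that of a transcript quantifier. The authors' TPM column gives abundance relative to effective length, with library totals that differ by at most 0.0018%, the lowest of them in the 14-day group. The tables give no gene names, so the transcripts of all 578 markers were found by sums of estimated counts that match the study's marker list within 1 count in every library, and were summed. All other transcripts stayed single (31512 features).

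Estimated counts were rounded and each comparison was fitted on its own groups over all features with edgeR 4.0.16 (R 4.3.3, TMM, filterByExpr, two-sided quasi-likelihood test). All 15 members described passed the filter on low counts. Adjusted p-values are Benjamini-Hochberg values over all features tested, and the unadjusted threshold of 0.05 is the one the study states. The SE is the size of the log2 fold change over the square root of the F statistic. The fitting script was tested on simulated data. Replicate numbers are shared by the groups in the labels. Correlations between same-numbered libraries of 2 groups ran from −0.12 to 0.22. For control and 3-day stress they were all positive, at 0.219, 0.018 and 0.0088. With no reference from differently numbered libraries, these values cannot decide whether the numbers mark pairs. The samples were treated as unpaired, and a replicate block was run as an alternative.

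Alternatives were other size factors, other filters, 1 fit of all libraries, a replicate block, DESeq2 1.42.0, limma 3.58.1 on log2(TPM + 1) and log2(TPM + 0.1), and each library left out. Members and lists were chosen with earlier results of these data known. All 15 are named (2 genes that met the rule are not reported here), and of the 28 other ubiquitin system markers those with an unadjusted p under 0.05 in the 21-day or the chronic comparison with control, while Herpud1 and Ubl3 were added after their values were seen. Promoters came from a RefSeq table of GRCr8, with no entry used for Usp7, and Rnor_6.0 coordinates were not used here. Python 3.11.15 with pandas 2.3.3 handled the tables.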

Additional observations from a re-analysis of the deposited data

How the results depend on the processing

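No member passed an adjusted p under 0.05 in edgeR as reported, and 1 (Triml1) did after 21 days in 1 fit of all 12 libraries (3.03% of all features), and in chronic stress against control with at least 10 counts in every library, in 1 fit of all libraries, with DESeq2 or without control 2 (2.48% to 5.92% of all features, and 0 to 1 members over the libraries left out). Against the 3-day group DESeq2 called 5 (4.84% of all features). The counts at an unadjusted p under 0.05 moved after 14 days to 3 with total count scaling, 2 with at least 10 counts in every library, 2 in 1 fit of all libraries and 4 with limma on log2(TPM + 1) or log2(TPM + 0.1), where 11.9% to 14.2% of all features passed, and after 21 days to 7 (total count scaling), 6 (1 fit of all libraries), 5 (DESeq2) and 6 (limma, both pseudocounts), with 11.3% to 19.8% of all features. The replicate block gave 2 members after 3 days and 9 after 21 days, with 3.86% and 17.1% of all features. It left the counts of the other comparisons within 1.5 times of those reported (6 in chronic stress against control, with 20.8% of all features). Scaling on markers of the same stage gave 5 against the 3-day group (31.1% of all features), with a spermatid median of 0.026, and reversed Klhl10 (−0.014) and Usp15 (−0.063) there, while members whose groups did not overlap became 2 after 3 days, 5 after 14 days, 7 after 21 days (7 also with total count scaling, 23.7% of all features) and 5 against the 3-day group, beside 8.92%, 21.2%, 29.1% and 20.02% of all features. That scaling ended the calls of Triml1 after 14 days (0.20) and 21 days (0.21), of Ube2g2 after 21 days (0.11), of Ube2g2 and Usp50 in chronic stress against control, and of Rnf4, Triml1, Ube2n and Usp50 against the 3-day group. It added calls in the lower direction for Ube2n after 14 days (−0.14) and Usp7 after 21 days (−0.15). Both were also added in chronic stress against control, and Usp7 against the 3-day group. With 1 library left out, unadjusted counts ran from 0 (without control 3 or any one 3-day library) to 3 (without control 1) after 3 days, 0 (without control 3 or 14-day 1) to 3 (without 14-day 2) after 14 days, 1 (without 21-day 3) to 5 (without 21-day 1) after 21 days, 2 (without 21-day 3) to 5 (without control 2 or 14-day 2) in chronic stress against control and 6 to 11 against the 3-day group, and counts without overlap from 1 to 6 (without control 1) after 3 days, and from 3 to 7 after 14 days, 4 to 10 after 21 days and 3 to 7 in chronic stress against control (each highest without control 2), with 8 to 10 against the 3-day group. Over the same omissions, in that order, the share of all features passing was 2.90% to 6.87%, 7.79% to 15.97%, 9.01% to 14.8%, 15.8% to 21.7% and 11.4% to 19.13%, and the share without overlap 17.2% to 23.9%, 27.6% to 35.7%, 28.5% to 34.9%, 12.3% to 21.8% and 12.1% to 19.098%. Single members were set against the alternatives only in comparisons where they were called or did not overlap as reported. There 350 log2 fold changes kept direction and side of the unadjusted threshold, 46 lost the call, 26 gained one and 2 reversed. Over all 15 members more signs changed. Scaling on markers of the same stage changed 5 signs after 14 days and 7 after 21 days. Leaving out control 1 changed 4 after 3 days and 4 after 14 days. The lowest count of a member in a library was 707 (Ube2t in 21-day 1), a counting error of 3.76%.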

Other observations

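Counts of a pair of members within 1 library can be set against each other without any scaling between libraries. The pairs below were chosen after their values were seen, and are given with no test. The conjugating enzymes Ube2g2 and Ube2t are assigned to spermatids and spermatocytes. Their count ratio was 1.58 to 1.77 in the control libraries and 1.49 to 1.58 in the 3-day libraries. It was 1.98 to 2.29 in the 14-day libraries and 2.34 to 2.49 in the 21-day libraries, with no overlap between the 14-day and 21-day libraries. The ratio of Ube2n to Ube2t was 6.73 to 8.16 in the control libraries, 5.85 to 6.31 after 3 days, 7.75 to 7.96 after 14 days, inside the control range, and 8.78 to 9.39 after 21 days. The ratio of Triml1 to Ube2t was 0.929 to 1.04 in the control libraries, at most 1.09 after 3 days, 1.33 to 1.41 after 14 days and 1.48 to 1.68 after 21 days. Each of these ratios sets a spermatid over a spermatocyte marker, and the whole lists without the members moved the same way. Spermatid markers took a mean of 9.35%, 9.02%, 10.01% and 10.47% of counts in the control, 3-day, 14-day and 21-day groups. Spermatocyte markers took 4.88%, 4.99%, 4.80% and 4.64%. Whether the pairs moved beyond their stages was not tested. Triml1 against Trim36, a spermatid marker of the same family, gave ratios of 0.0819 to 0.1127 in controls. The ratios were 0.1140 to 0.1269 after 3 days, above every control. They were 0.1066 to 0.1161 after 14 days and 0.1074 to 0.1211 after 21 days, which both overlap the controls.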
